A study of Mus musculus with 62 samples.

Results

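The regions described here were merged H3K27ac regions called in the 3 limb muscles of the study, extensor digitorum longus (EDL), quadriceps (Quad) and soleus (Sol), and not in the diaphragm (Dia). The H3K27ac peak lists of the 4 muscles were merged, and a merged region was kept where it shared at least 1 bp with an EDL, a Quad and a Sol peak and with no Dia peak. This left 2539 of 51588 merged regions (4.92%). They were chosen by the H3K27ac peak calls themselves, so their H3K27ac levels and the absence of a Dia peak are given as a description, without a test. Acetylation of histone H3 at lysine 27 (H3K27ac) is found at enhancers and promoters in use. Dimethylation at lysine 4 (H3K4me2) also covers enhancers that are open but not acetylated.

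Chromatin immunoprecipitation sequencing (ChIP-seq) of both marks was done in 2 separate biological samples per muscle from sedentary wild-type male C57BL/6J mice, bought at 7 to 8 weeks of age. A Quad sample were from a single muscle of 1 animal, whereas each EDL, Sol or Dia sample was pooled from 3 animals. Further Quad samples were from sedentary mice (Sed), from mice given running wheels for 4 weeks from an age of 8 weeks (Ex), from male mice that carry a Pgc1a transgene under the muscle creatine kinase promoter (mTg) and from their wild-type littermates (Wt), with 2 samples per mark and group. Accessible chromatin of control Quad was mapped by ATAC-seq, with 3 libraries pooled by the authors. The mediator subunit MED1 was mapped in 1 ChIP-seq library for each of the 4 muscles, and the transcription factor NFAT in 1 library each of Quad and Sol.

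The 8 H3K27ac libraries of the 4 muscles held 15.3 to 24.2 M tags, the 8 H3K4me2 libraries 16.9 to 22.7 M tags and the 5 inputs 12.6 to 19.9 M tags. For Dia replicate 2 the deposited headers gave 19.19 M tags for H3K27ac and 18.17 M for H3K4me2. The paper's read counts list these numbers the other way round. Whether the libraries of the 2 marks were exchanged there was not tested, and both the Dia calls and the H3K4me2 levels below rest on them. The labelled tissue was checked on genes that mark its cells. Peaks nearest to the muscle fiber genes Acta1, Ckm, Des and Ttn were present in every muscle, and the strongest of each ranked between the 94.0th and 99.7th percentile of its list. Markers of other cells were present too. Of 4 endothelial marker genes (Pecam1, Cdh5, Kdr, Tie1) all 4 had a peak in every muscle, of 3 immune markers 1 or 2 did, of 4 adipocyte markers 1 or 2, of 3 Schwann cell markers 2, and of 5 fibroblast and tendon markers 4 or 5. Of 4 markers of mesothelium, the epithelium that lines the body cavities and covers the diaphragm, 1 or 2 had a peak in a limb muscle and 4 in Dia. Whole muscle was used, so a smaller share of cells that carry a mark and a lower level per cell cannot be told apart in any value below.

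Skeletal muscle of the limb and of the diaphragm arises from migrating precursors of the somites, and the position of a muscle along the body is encoded by homeobox genes. Hox genes lie in 4 clusters, in which genes nearer to one end are used in more posterior tissue, and the posterior genes of HoxA, HoxC and HoxD are known for their roles in the limb. Hoxc10 and Hoxc11 and the paired-type factor Pitx1 are typical of the hindlimb, from which all 3 limb muscles here were taken, and Irx3, Tbx15, Prrx1 and Twist2 act in limb mesenchyme or patterning. Enhancers usually lie far from the gene they act on, so the nearest gene is an address and not a target.

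The sequences shown here are the strongest Quad ATAC-seq sites in 4 regions nearest to limb position genes, given as the accessible Quad sites inside these regions. Accessibility was used from Quad alone, and H3K27ac was called over longer stretches. The sites therefore do not place the limb-only acetylation. Each sequence is 195 bases of GRCm38.p6 (mm10), taken from RefSeq on the plus strand. Capitals mark matches to the motifs listed with the motif counts. The first 2 lie downstream of the transcription start site (TSS) of Irx3 at chr8:91787331-91787525 and chr8:91782328-91782522, both intergenic. The third, nearest to Twist2, lies in an intron of Hdac4 at chr1:91985833-91986027, where the MEF2 and PITX matches share 1 base. Its MEF2 match has GGGT as inner bases, which the search left free, so it need not be a MEF2 site. The last, nearest to Pitx1, lies at chr13:55976945-55977139 inside the noncoding gene Gm47071 and outside its exons, and holds none of the motifs.
Irx3 site at 14.6 kb: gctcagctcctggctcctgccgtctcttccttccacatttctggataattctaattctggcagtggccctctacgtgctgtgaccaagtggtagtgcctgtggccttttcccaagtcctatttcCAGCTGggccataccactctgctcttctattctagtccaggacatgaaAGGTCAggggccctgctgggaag
Irx3 site at 19.6 kb: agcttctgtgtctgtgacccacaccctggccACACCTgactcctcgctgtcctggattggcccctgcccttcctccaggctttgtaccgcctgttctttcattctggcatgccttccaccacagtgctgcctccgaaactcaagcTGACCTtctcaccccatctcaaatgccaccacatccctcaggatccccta
Twist2 site at 185 kb: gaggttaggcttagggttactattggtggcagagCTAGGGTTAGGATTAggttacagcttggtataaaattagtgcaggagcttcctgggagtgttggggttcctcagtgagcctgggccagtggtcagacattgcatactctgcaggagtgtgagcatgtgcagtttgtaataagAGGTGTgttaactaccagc
Pitx1 distal site: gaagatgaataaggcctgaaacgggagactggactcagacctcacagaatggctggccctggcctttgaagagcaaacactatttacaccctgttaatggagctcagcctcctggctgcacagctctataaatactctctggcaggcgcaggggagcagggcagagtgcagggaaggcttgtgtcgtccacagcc
At the Irx3 site at 14.6 kb both marks were called in the 3 limb muscles and neither in Dia. The Pitx1 site had H3K27ac in the limb muscles and H3K4me2 in all 4, and the Twist2 site had H3K4me2 in Quad alone.

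Regions nearest to a gene of 2 lists, the Hox clusters (54 genes) and genes of the limb field and patterning (45 genes), numbered 14, which is 0.551% of the members against 0.457% of all merged regions. The 14 regions fell to 10 genes. They were 1 region at Hoxc9 to Hoxc11 (nearest gene Mir196a-2), 3 at Irx3, 2 each at Twist2 and Tbx15, and 1 each at Hoxd9, Hoxa10, Prrx1, Pitx1, Meis3 and Tcf4. The Wilson interval of the member share, 0.3287% to 0.9235%, includes the share of all regions. A difference is therefore not shown for the limb-only regions as a set. Among promoter members the share was 1.316% (3 regions, interval 0.4485% to 3.796%), beside 0.3626% of all merged promoters. Among distal members it was 0.476%, beside 0.4676%. With limb peaks of adjusted p under 0.001, 7 of 583 members were nearest to such genes. No share of all regions is given at that threshold. What follows describes single loci.

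The longest of all members and the one with the highest mean level covered 41.7 kb of the HoxC cluster (chr15:102945413-102987141). It ran from the noncoding RNA gene Hotair over Hoxc11, Hoxc10 and the microRNA gene Mir196a-2 to Hoxc9, with exons of each inside it. Levels are given below as percentiles of the H3K27ac log2 tag level per kb within a library's own peak list, since the lists were normalized separately. The level of a region is that of the peak sharing most bases with it. The HoxC region stood at the 97.8th and 98.0th percentile in the EDL replicates, at 90.7 and 91.4 in Quad and at 88.3 and 88.9 in Sol. These are values of 1 peak per muscle, of 12.2 kb in EDL, 28.2 kb in Quad and 24.4 kb in Sol. The other peaks inside the region stood lower. Their mean percentiles were 46.4, 70.9 and 72.1 in EDL, 85.7 in Quad and 11.4, 72.5 and 59.2 in Sol. EDL peaks covered 73.7% of it (30.8 kb), Quad peaks 74.5% and Sol peaks 84.1%, and the nearest Dia peak began 11.5 kb away. H3K4me2 peaks covered 93.1% of the region in EDL, 75.6% in Quad and 95.7% in Sol. In Dia they covered 10.3% (4.29 kb in 3 peaks). These stood at mean percentiles of 24.8, 50.7 and 24.3 of the Dia list. The Dia mark was thus present at short stretches where the limb muscles carried a domain.

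**Figure D1:**
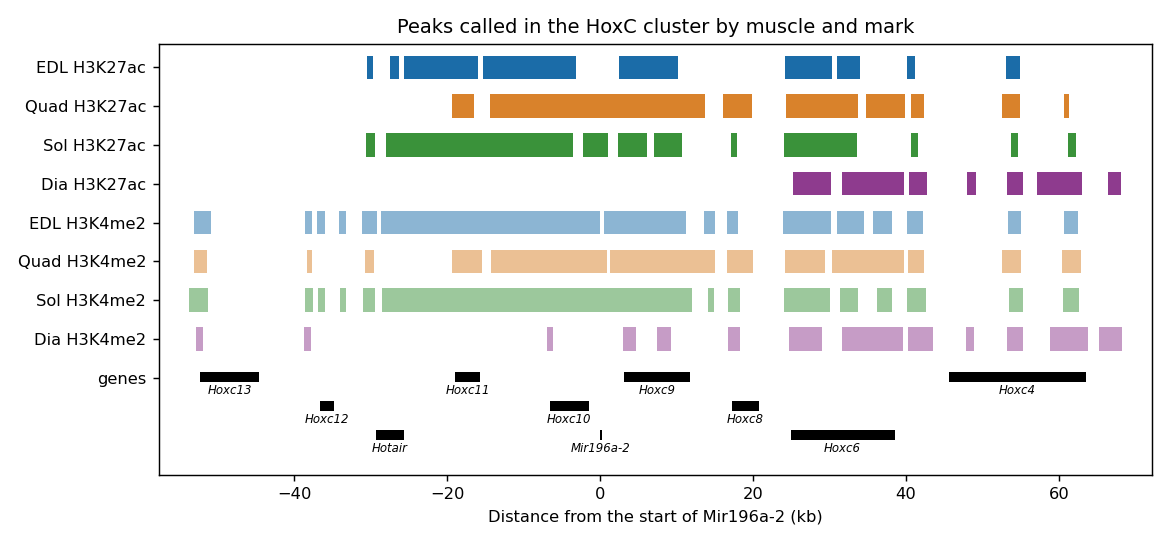
Peaks of H3K27ac (dark bars) and H3K4me2 (pale bars) called in each muscle across the HoxC cluster, and the annotated genes (black), against the distance in kb from the start of Mir196a-2. H3K27ac peaks of the 3 limb muscles cover 73.7% to 84.1% of the 41.7 kb region from Hotair to Hoxc9, where Dia has no H3K27ac peak and 3 short H3K4me2 peaks, whereas all 4 muscles have peaks over Hoxc6.

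Next to this region the muscles shared acetylation. A 15.8 kb region at Hoxc6 was called in all 4 muscles, as was a 2.72 kb region at Hoxc4, and a 5.92 kb region at Hoxc4 was called in Quad, Sol and Dia. A 3.82 kb region at Hoxc8 was called in Quad and Sol. In HoxA, a 20 kb region spanning Hoxa7, Hoxa9 and part of Hoxa10 was called in all 4 muscles, the member at Hoxa10 (2.71 kb, in its intron, chr6:52238640-52241346) in the limb muscles, a 6.35 kb region at Hoxa11 in EDL and Sol, and 2 regions at Hoxa13 in EDL alone. In HoxD, Hoxd3 and Hoxd8 were called in all 4 muscles, Hoxd9 (2.57 kb, chr2:74696918-74699491) in the limb muscles and Hoxd10 in EDL alone. No region of HoxB was a member. In HoxA and HoxD the member lay between a region of all 4 muscles on the anterior side and a region of fewer limb muscles on the posterior side, and in HoxC only the Hoxc8 region of Quad and Sol stood between the member and the shared Hoxc6 region. At Hoxa10, levels were at percentiles 46.1 and 49.8 in EDL, 70.4 and 71.4 in Quad and 58.7 and 52.5 in Sol, and at Hoxd9 at 81.9 and 70.2, 61.3 and 74.7, and 71.9 and 66.6. H3K4me2 was called in all 4 muscles at both genes. It covered 100% of the Hoxa10 region in EDL and 32.6% in Dia, and 100% and 74.9% of the Hoxd9 region.

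Irx3, a homeobox gene of limb and neural patterning, was nearest to 12 merged regions, of which 3 were members, 3 were called in all 4 muscles and 5 in Dia. The strongest member lay 14.3 kb downstream of the TSS (chr8:91786006-91788771, 2.77 kb, intergenic, over an exon of the noncoding gene Gm36380). It stood at percentiles 83.0 and 82.6 in EDL, 81.6 and 88.6 in Quad and 72.9 and 73.8 in Sol, and its nearest Dia H3K27ac peak was 155 kb away. H3K4me2 peaks covered 47.6% of it in EDL, 44.9% in Quad, 44.1% in Sol and none of it in Dia. It ranked highest by level among the 285 members with H3K4me2 in the 3 limb muscles and not in Dia. A second region at 18.2 kb (chr8:91781136-91785707) was stronger in EDL (69.6 and 66.2) than in Sol (24.0 and 5.22), carried H3K4me2 in EDL alone and overlapped a MED1 peak of Dia. The Irx3 promoter region (chr8:91800627-91802399) stood at 41.5 and 61.5 in EDL, 54.8 and 68.2 in Quad and 60.7 and 34.5 in Sol, so that the muscles overlapped. H3K4me2 covered 100% of it in all 4 muscles. The promoter was thus marked by H3K4me2 in Dia and the downstream element was not.

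Tbx15, a T-box factor of limb and fast-fiber muscle, had a member with H3K4me2 in all 4 muscles (chr3:99240133-99242347). This member lay 12.5 kb from the TSS of the authors' annotation, but over an exon and the start of the gene in GENCODE. An intronic member of Tbx15 (chr3:99260947-99265484) had H3K4me2 in the limb muscles alone. Pitx1 was nearest to 5 merged regions, none of them called in Dia. Of these 4 were called in EDL, 4 in Quad and 1 in Sol, the last being the member 146 kb upstream (chr13:55976238-55977659). The Pitx1 member was low in Sol, at percentiles 14.2 and 3.05, against 33.5 and 47.2 in EDL and 53.3 and 19.3 in Quad. Tbx4, another hindlimb factor, had 3 regions and no member. Twist2, a mesenchymal repressor of myogenic factors, had 16 regions, of which 12 were called in limb muscles alone and 2 were members. Both lay in Hdac4, 134 and 185 kb from the Twist2 TSS. The member of Prrx1, a homeobox gene of limb mesenchyme, lay 64.7 kb from its TSS in an intron and ranked highest in Quad, at 76.1 and 72.4. Meis3, a homeobox cofactor of Hox proteins, had its promoter among the members at percentiles 7.52 to 35.5, and the Tcf4 member, in an intron of an E-protein gene, lay between 1.67 and 26.8.

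**Figure D2:**
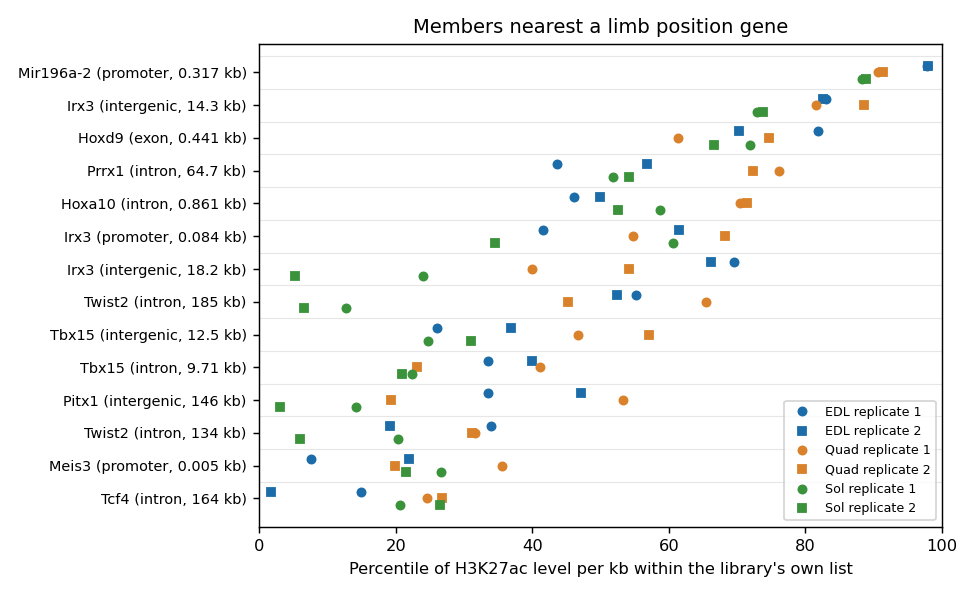
H3K27ac level of the 14 regions nearest to a limb position gene, as the percentile of the level per kb within each library's own list (0 to 100), for 2 replicates each of EDL, Quad and Sol. Each level is that of the peak sharing most bases with the region. Labels give the class and the distance to the transcription start site. The HoxC region (Mir196a-2) is above 88 in every library, and the regions at Twist2, Tbx15, Pitx1, Meis3 and Tcf4 are below 66.

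Over the whole limb position lists, 59 genes had 236 merged regions. Of these 216 were called in at least 1 limb muscle, 120 in Dia, 69 in all 4 muscles and 20 in Dia alone. Over all 51588 merged regions, 19318 were called in all 4 muscles. For the other counts no share over all merged regions is given here, so they are a description of these genes alone. The Dia-only regions included 4 of the 5 at Meis2, the single region at Isl1 and 2 of the 3 at Hoxa4. Each of these genes had no member.

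Members lay mostly outside promoters. Promoters in the authors' annotation (a TSS with 1000 bp before it and 100 bp after it) made up 228 members (8.98%), against 9.62% of all merged regions and 17.8% of the 19318 regions called in all 4 muscles. Introns held 1244 members (49.0%) and intergenic sequence 900 (35.5%). The median distance to a TSS was 22.7 kb, against 7.32 kb for the regions of all 4 muscles. The members spanned 0.523 to 41.7 kb with a median of 2150 bp, and the regions of all 4 muscles had a median of 3333 bp, so shares of overlap with other marks are given below also for regions of 1.5 to 3 kb. The other regions lacking 1 muscle resembled the members in width, at medians of 2205 bp without Sol (1939 regions), 2054 bp without Quad (1682 regions) and 2062 bp without EDL (1187 regions), and their promoter shares were 7.32%, 15.1% and 5.73%.

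The members were of low to middle H3K27ac level. Their median percentile was 35.2 and 36.3 in the EDL replicates, 42.9 and 45.2 in Quad and 32.6 and 32.5 in Sol, whereas the regions of all 4 muscles had medians of 68.0 to 72.9 in the same libraries. Percentiles above 90 were reached by 2 to 23 members per library. Quad gave the highest mean percentile in 1504 members (59.2%), Sol in 563 (22.2%) and EDL in 472 (18.6%), beside 45.8%, 31.8% and 22.5% of the regions of all 4 muscles. The Quad list is the longest, with 40949 peaks against 35750 in EDL and 34173 in Sol, which raises the percentile of a given region. Ranked over the same members and regions of all 4 muscles in every library, Quad was highest in 37.1% of the members, Sol in 33.8% and EDL in 29.1%. Across the 2539 regions, Spearman's rho between mean levels was 0.790 for EDL and Quad, 0.625 for EDL and Sol and 0.574 for Quad and Sol, and 0.819 to 0.882 between replicates. These correlations are across regions, which are not replicates.

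**Figure D3:**
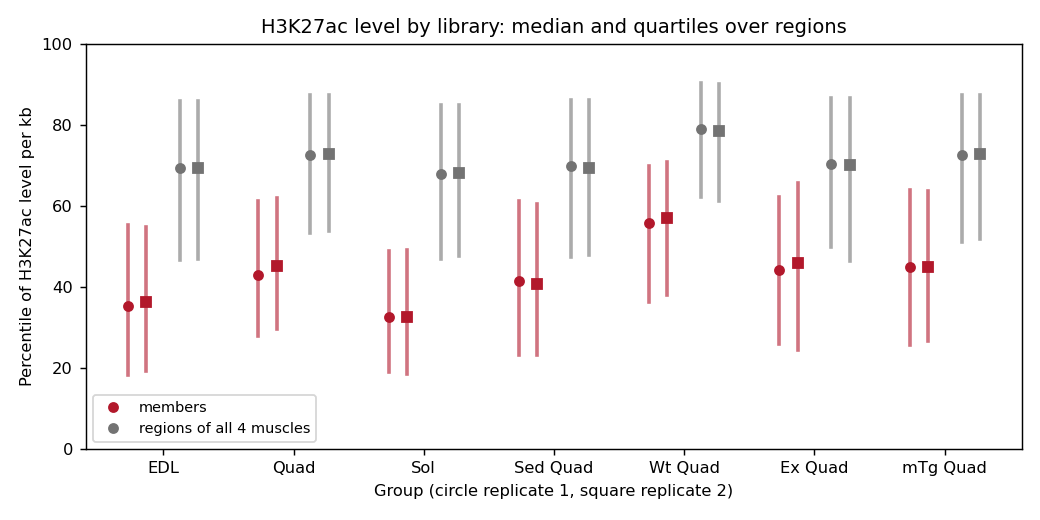
Median (symbol) and quartiles (line) over regions of the H3K27ac level percentile per kb, by group and replicate, for members (red) and for regions of all 4 muscles (gray). In Sed, Wt, Ex and mTg Quad only the regions called there are counted. Member medians are 32.5 to 45.2 in EDL, Quad and Sol, and those of the regions of all 4 muscles 68.0 to 72.9.

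Several members lay near the limits of the rule. The Dia peak nearest to a member was 69 bp away, at D6Wsu163e, 104 members (4.10%) had one within 1 kb and 830 (32.7%) within 5 kb, and the median gap was 9.39 kb. The shortest Dia peak that kept a region of all 4 muscles out of the members was 501 bp long, at Mrpl44. The weakest member peaks, at Smad5 in EDL, Rplp1 in Quad and Fam175b in Sol, had the authors' adjusted p-values of 0.0498, 0.0499 and 0.05, and the weakest Dia peak at a region of all 4 muscles, at Hs2st1, had 0.05. The median adjusted p-value of member peaks was 0.001 in EDL, 0.000225 in Quad and 0.00392 in Sol, against 2.85e-05, 3.33e-05 and 0.000141 over all peaks. The members were therefore weaker calls than the median peak of the same lists. With limb peaks limited to adjusted p-values under 0.001, 583 members were left, 7 of them nearest to limb position genes (Mir196a-2, Hoxa10, Hoxd9, Prrx1, Tbx15 and 2 at Irx3).

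H3K4me2, which the rule did not use, had its lowest share of calls at the members in Dia. Peaks of EDL overlapped 62.2% of them, Quad peaks 60.1%, Sol peaks 52.7% and Dia peaks 34.7% (881 regions, beside 44.6% of all merged regions). The Dia share was the lowest over all merged regions too, where EDL, Quad and Sol gave 55.8%, 56.0% and 48.6%, and at the regions of all 4 muscles, where Dia gave 74.5% and the limb muscles 78.8% (Sol) to 84.4% (EDL). In all 4 muscles it was called at 761 members (30.0%, beside 35.5% of all merged regions), in none at 630 (24.8%, beside 30.9%) and in the 3 limb muscles without Dia at 285. The last makes 11.2% of the members (Wilson 95% interval 10.1% to 12.5%), beside 4.39% of all merged regions and 5.23% of the regions of all 4 muscles. Intervals cover counting error over regions only. The counterparts of this share were 10.6% for regions without Sol (H3K4me2 in the other 3 muscles and not in Sol), 6.12% for regions without Quad and 4.30% for regions without EDL. Over all merged regions these counterparts were 2.48%, 1.75% and 0.781%. A share above that of all merged regions was thus not particular to the members, whose background of 4.39% was the highest. In each group lacking Sol, Quad or EDL the muscle without H3K27ac also had the lowest share with H3K4me2, at 38.0% for Sol, 54.0% for Quad and 37.1% for EDL. Members with H3K4me2 in every muscle thus outnumbered those with H3K4me2 in the limb muscles alone.

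**Figure D4:**
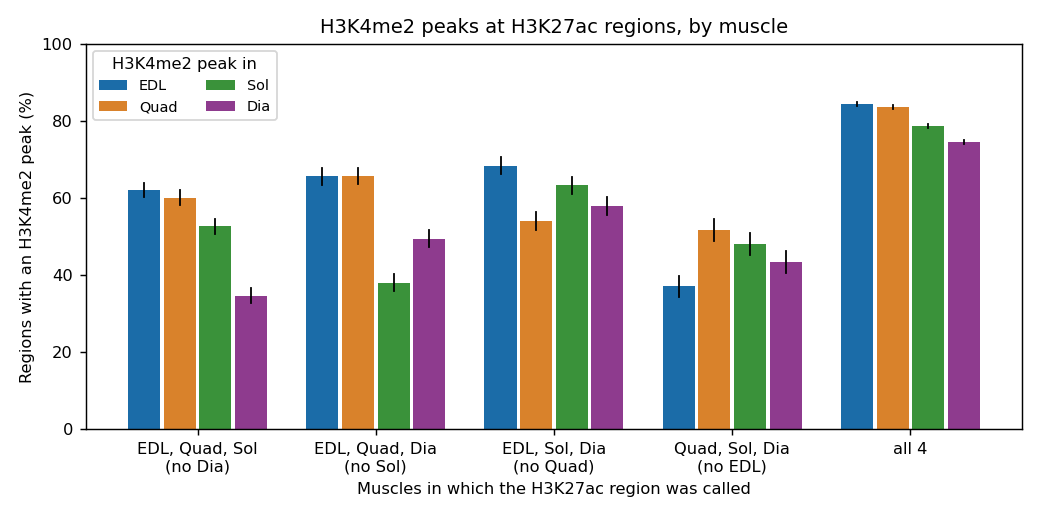
Share of H3K27ac regions (percent, from 0 to 100) that overlap an H3K4me2 peak of EDL, Quad, Sol or Dia, for the regions lacking each muscle and for those of all 4 muscles. Lines are Wilson 95% intervals over regions. In each set lacking 1 muscle the bar of that muscle is lowest, at 34.7% for Dia in the members.

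H3K4me2 was called in Dia at 93.9% of the 228 promoter members, against 98.8% of promoters of all 4 muscles and 94.98% of all merged promoters. It was called at 28.9% of the distal members, against 39.3% of all distal merged regions, 69.3% of distal regions of all 4 muscles, 45.9% of those without Sol, 50.9% of those without Quad and 41.0% of those without EDL. Among members of 1.5 to 3 kb the Dia share was 29.3%, against 47.3% of all merged regions and 74.6% of regions of all 4 muscles of that width.

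A test was possible on the H3K4me2 level, since it was measured in 8 libraries that the rule did not use. At the 761 members with an H3K4me2 peak in every muscle, the median percentile was 74.5 and 74.0 in the EDL replicates, 73.7 and 74.5 in Quad, 69.2 and 69.1 in Sol and 64.0 and 65.1 in Dia. At the 12786 regions with both marks in all 4 muscles it was 79.0 and 79.1, 80.2 and 80.2, 74.9 and 74.8, and 73.6 and 73.4. The members thus stood lower by -4.54 and -5.01 points in EDL, -6.56 and -5.66 in Quad, -5.66 and -5.73 in Sol and -9.55 and -8.32 in Dia. On this scale the Dia values did not overlap with those of the limb libraries. Their mean was -8.93 ± 0.867 (SD, n = 2) against -5.53 ± 0.689 (SD, n = 6), a difference of -3.41 points with p = 0.0357 in an exact two-sided permutation test over libraries, the smallest value that the 28 assignments allow. The test took libraries as units, with 2 of each muscle and Dia as the only muscle outside the limb. Its p-value therefore does not speak to the spread between muscles. No such test is given for regions lacking another muscle, where the uncalled muscle also had the lowest share with H3K4me2. The difference is thus not shown to be particular to Dia. Without Dia replicate 1 the difference was -2.79 and without Dia replicate 2 -4.02, where the smallest p that 7 assignments allow is 0.143. Among members called with limb peaks of adjusted p under 0.001, 245 entered and the difference was -1.003 (exact permutation p = 0.107), so the call did not hold there. The H3K4me2 lists also differed in length, with 33138 peaks in Dia, 35696 in Sol, 42501 in EDL and 43525 in Quad, and a shorter list stretches a gap in percentile points. Ranked over the same 761 members and 12786 regions in every library, the differences were -14.3 and -12.6 in Dia and -12.63 to -9.06 in the limb libraries, so that Dia and Quad overlapped. The difference between the means was then -3.17 and the call was lost (exact permutation p = 0.0714). Input tags moved beside this result. The median input percentile was 67.1 at these members and 70.2 at the regions of all 4 muscles in Dia, 62.3 and 72.0 in EDL, 64.8 and 74.5 in Quad and 59.9 and 69.3 in Sol, and its part in the result was not tested.

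**Figure D5:**
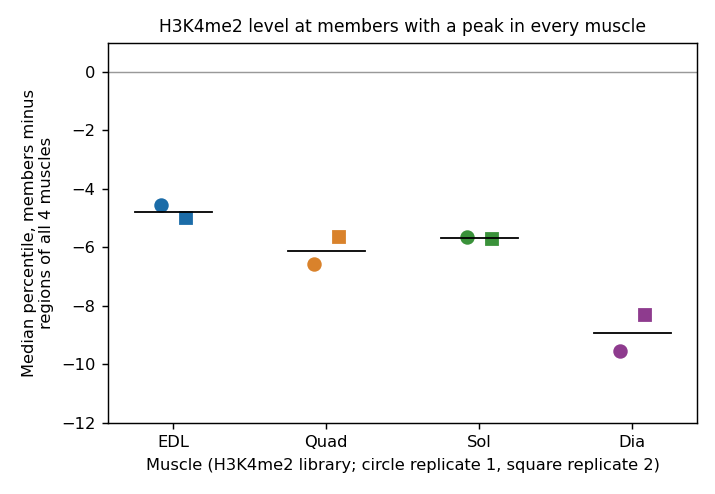
Median H3K4me2 percentile at the 761 members with an H3K4me2 peak in every muscle minus that at the 12786 regions with both marks in all 4 muscles, in percentile points, for each H3K4me2 library. Lines are means of 2 replicates, and on this scale of own-list percentiles both Dia libraries (-9.55 and -8.32) lie below the 6 limb libraries (-6.56 to -4.54).

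The members could be looked up in Quad samples that the rule did not use. Of the members, 76.4% were called again in Wt Quad, 69.5% in Sed, 62.3% in Ex and 56.6% in mTg. Over all merged regions these shares were 67.5%, 58.0%, 56.1% and 52.9%. The rule required a Quad peak of every member, whereas all merged regions include regions without one. The 2 sets are therefore unlike for these shares and for the Quad ATAC-seq shares below. In all 4 sets 27.1% were called (beside 33.3% of all merged regions and 72.8% of the regions of all 4 muscles), and 5.40% in none, beside 17.4% of all merged regions. The corresponding shares in all 4 sets were 29.9% for regions without Sol, 25.3% without Quad and 22.4% without EDL. ATAC-seq sites of control Quad lay in 62.6% of the members, beside 54.5% of all merged regions and 86.7% of the regions of all 4 muscles. Per 10 kb the members held 2.72 such sites and the regions of all 4 muscles 2.49. The HoxC region was called in all 4 sets, at percentiles of 73.8 and 75.8 in Sed, 94.5 and 93.5 in Wt, 85.4 and 88.3 in Ex and 90.9 and 92.1 in mTg.

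After the HoxC region, the members of the highest level were the promoters of Tomm7 (a subunit of the mitochondrial outer membrane translocase), Eef1akmt1 (a lysine methyltransferase of an elongation factor), Usp8 (a deubiquitinase), Cluap1 (intraflagellar transport), Rps12 (a ribosomal protein) and Nop56 (a nucleolar ribonucleoprotein), intergenic regions near the Fc receptor gene Fcgr3 and the AP-1 gene Fosb, and an exonic region at the start of Ufl1 (a protein ligase). Mtmr9, Tmem41b and Mfsd4b4 completed the 10 highest promoters. Tomm7 stood at percentiles 87.2 and 87.7 in EDL, 93.4 and 92.0 in Quad and 89.1 and 93.5 in Sol. Dia carried H3K4me2 at all 12 of these regions outside HoxC, with Tomm7 at 95.3 and 97.6 and Usp8 at 96.1 and 95.3 of the Dia list. Input stood at the 67.6th percentile (Ufl1 in EDL) or above at the same peaks in every muscle, with Mfsd4b4 at 73.9 in EDL. For Tomm7 it stood at the percentiles 95.8 in Dia, 92.0 in EDL, 97.5 in Quad and 95.4 in Sol, and for Eef1akmt1 at 99.2, 98.8, 98.6 and 99.7. Promoter members with H3K4me2 in all 4 muscles had a median Dia input percentile of 81.3, beside 79.8 at promoters of all 4 muscles, whereas in EDL, Quad and Sol the members were lower, at 75.04 against 78.7, 75.3 against 81.8 and 75.3 against 78.4. Peaks were called against input, and its part in these values was not tested.

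The 2539 members fell to 2106 nearest genes, of which 1763 had 1 member. For 1682 of the genes (79.9%) another merged region of the same gene was called in Dia, and 424 had none. The share over all genes with merged regions is not given here, so this is not read as a trait of the members. The RNA-binding protein gene Rbms1 had 6 members, all in its introns, of 25 merged regions, and 11 of the 25 were called in Dia. The p38 kinase activator Map2k6, the calcium-activated potassium channel Kcnma1, Wwox, the phospholipid scramblase Ano6 and the muscle anchoring protein Akap6 had 5 each. Eea1, Mir1904, the MEF2-associated corepressor gene Irf2bp2 and Lyplal1 had 4, with those of Mir1904 inside the phosphodiesterase gene Pde4d. The Kcnma1 members were all intronic, at mean percentiles of 43.3 to 58.1, and 1 of the 5 had H3K4me2 in Dia. None of the members at Eea1, Mir1904 and Irf2bp2 had H3K4me2 in Dia, where 34.7% of all members had it. The mark was also missing in at least 1 limb muscle at each of them but the Mir1904 member at chr13:109622962-109626405. Some of them had it in no muscle. After the Irx3 element, the members of the highest level with H3K4me2 in the limb muscles and not in Dia were an intronic region of Aff3 (nearest gene Rev1), intergenic regions near Ap4e1 and Clptm1, and an intronic region of Zeb1 (nearest gene Gm10125), at mean percentiles of 75.2, 71.4, 70.9 and 68.9.

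Lists of muscle genes took small shares of the members, given here before their shares of all merged regions. These were 0.236% and 0.421% for muscle lineage regulators, 0.0788% and 0.109% for fast fibers, 0.158% and 0.114% for slow fibers and 0.276% and 0.264% for oxidative metabolism. They were 0.0394% and 0.120% for glycolysis. Of 25 muscle lineage regulators, 5 had 6 members, at Mef2c (2), Myf6, Myog, Sox6 and Tead1. The region nearest to Myog, which drives terminal differentiation, lay 13.6 kb upstream (chr1:134274555-134278344) and had H3K4me2 in EDL and Quad alone. The member 1.22 kb from the TSS of Sox6, a repressor of slow fiber genes, and over an exon of 1110004F10Rik was high in EDL (70.1 and 72.9) and Quad (79.0 and 58.7) and low in Sol (4.77 and 3.07), and H3K4me2 covered 100% of it in every muscle. Genes of fast contraction and calcium handling had 2 members of 56 merged regions, at Mylk2 and Tpm1, and genes of slow contraction 4 of 59, at Myl2, Myoz2, Pln and Atp2a2. The Mylk2 member (myosin light chain kinase of muscle, chr2:152897744-152901217) stood at 88.7 and 77.0 in EDL, 90.1 and 84.6 in Quad and 52.8 and 27.6 in Sol, with a Dia peak 0.848 kb away. Glycolysis had 1 member, near Gapdh inside Ncapd2, and oxidative metabolism 7, at Cd36, Acadl, Ppard, Esrrb, Ucp3 and Esrrg (2). Of 15 genes of diaphragm development, 1 had a member (Gab1), and 10 of the 88 merged regions at these genes were called in Dia alone, without a share over all merged regions to set beside it. This list took 0.0394% of the members, against 0.171% of all merged regions.

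Markers of other cell types gave 12 members. They were 8 of 88 merged regions at endothelial genes (Flt1, Kdr, Erg and Sox17), 2 of 60 at fibroblast and tendon genes (Fmod and Col3a1), 1 of 26 at adipocyte genes (Pparg), 1 of 25 at nerve and Schwann cell genes (Pmp22) and none at immune genes (12 regions). The 8 endothelial members take 0.315% of all members, where the list takes 0.171% of all merged regions, and the other lists take 0.0788% or less of the members, against 0.0233% to 0.116%. Mesothelial genes had no member of 25 regions, of which 20 were called in Dia alone. The share of Dia-only calls over all merged regions is not given here. The part of these cell types in the set of members was not tested.

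MED1, a subunit of the mediator complex that gathers at strong enhancers, overlapped 68 members (2.68%) in EDL, Quad or Sol, beside 6.38% of all merged regions and 14.5% of the regions of all 4 muscles. In Dia it overlapped 18 (0.709%, beside 2.87% of all merged regions). NFAT, a factor activated by calcineurin, overlapped 64 members in Sol (2.52%, beside 3.3%) and 1 in Quad. The strongest members with limb MED1 were at Rps12, Fcgr3, Nop56, Ttc8 and Med1 itself.

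In the authors' comparisons within Quad, 14 members overlapped regions hyperacetylated in Ex against Sed (0.551%, beside 0.521% of all merged regions) and 133 regions hypoacetylated in Ex (5.24%, beside 4.28%). In mTg against Wt, 59 were hyperacetylated (2.32%, beside 2.71%) and 52 hypoacetylated (2.05%, beside 1.54%). Regions of all 4 muscles gave 0.243%, 5.72%, 3.18% and 0.999%, and regions without Sol 0.361%, 10.99%, 4.69% and 3.40%. The authors selected these lists for differing, so the levels are a description. The Irx3 element at 14.3 kb had log2 tag levels of 8.21 and 8.02 in Sed and 7.34 and 7.19 in Ex, and the difference of the means was -0.85. At Mylk2 the levels were 7.91 and 8.15 in Wt and 7.08 and 6.92 in mTg (difference -1.03). At Ccsap, which encodes a centriole protein, they were 6.26 and 6.39 in Wt and 7.96 and 7.53 in mTg (difference 1.42), and at Elmo1, an engulfment and motility factor, 7.09 and 7.33 in Sed and 7.70 and 8.11 in Ex (difference 0.70). In each of these both replicates of one group lay above both of the other. The Irx3 region at 18.2 kb and the Pitx1 region were also among those hypoacetylated in Ex, as were the Mylk2 region and the member nearest to Myf6, 73.3 kb away in an intron of Ptprq.

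Motif letters were counted in 195-base ATAC-seq sites of Quad, on both strands. The E-box of myogenic factors was searched as CAGCTG, and the MEF2 motif as CTA, any 4 bases and TAG. The MEF2 letters set no limit on the 4 inner bases, so a match to them need not be a MEF2 site. Among motifs of limb position factors, homeobox proteins were searched as TAATTA, the PITX factors as TAATCC, the MEIS cofactors as TGACAG and T-box factors (TBX) as AGGTGT. Among motifs of other factors in muscle, the TEAD factors were searched as GGAATG, the AP-1 dimer as TGANTCA and nuclear receptors as AGGTCA. The FOX factors were searched as TGTTTAC and the GATA factors as AGATAA. No motif contains another, though matches can share bases. The homeobox letters stood in 3.30% of the 1485 sites in distal members (Wilson 95% interval 2.51% to 4.34%), in 1.98% of the 18060 sites in distal regions of all 4 muscles (interval 1.78% to 2.19%) and in 2.20% of all 44911 sites. Regions without Sol gave 2.75%, without Quad 2.19% and without EDL 2.34%, all with intervals that overlap that of the members. In all distal merged regions the homeobox share was 2.27%. The AP-1 letters stood in 12.9% of member sites, 10.2% of those in distal regions of all 4 muscles and 11.3% of those in all distal merged regions. The same shares were 14.3%, 11.9% and 12.3% for TEAD, 6.73%, 4.79% and 5.45% for GATA, 19.3%, 16.9% and 17.7% for nuclear receptors, 24.5%, 22.2% and 22.9% for the E-box and 8.01%, 6.79% and 7.07% for TBX. Other regions lacking 1 muscle reached or exceeded the members for some of these letters, with AP-1 at 15.5%, TEAD at 15.3% and GATA at 7.75% in sites without EDL and nuclear receptors at 20.7% in sites without Sol. MEF2 (5.39% and 5.58%), PITX (4.92% and 4.51%), MEIS (16.6% and 16.3%) and FOX (3.64% and 3.48%) lay close to the regions of all 4 muscles. Member sites had a lower median GC content, 51.3% against 54.4%, and its part in these shares was not tested.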

How the data were processed

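The deposited peak lists gave regions in mm10. The submitters' processing notes name Bowtie 1.2 and HOMER. Histone peaks were called by the authors over both replicates against input, with HOMER and DESeq2, at 2-fold enrichment and an FDR of 0.05. The deposited tag columns, which the authors made with DESeq2, hold log2 values, assumed to be regularized within each list. The deposited p-value columns hold the authors' adjusted p-values, and the peak score is the authors' tag level of a peak. Both were used to rank or filter only. The deposited ATAC-seq list of control Quad gives a normalized tag signal for each site. Columns of the authors' fold changes were not used.

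Lists were merged with bedtools 2.31.1. A region took nearest gene, class and level from the peak sharing most bases with it. Levels per kb were ranked within each library's list, because lists were normalized separately and hold no counts. Genes inside regions were from GENCODE, sequences from RefSeq GRCm38.p6 through pysam 0.24.0. The H3K4me2 test was an exact permutation over libraries, tested on simulated data. The members and lists were chosen with earlier results of these data known.

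Named were the regions nearest to limb position genes, the 10 highest members and promoters, the 10 genes with most members, the 5 highest with H3K4me2 in limb muscles alone, and up to 3 per other gene list and 5 per factor or modified set, by mean percentile. Alternatives changed the merging, the peak threshold, the overlap, the width and the libraries. Some sequences and motif counts are not reported here. The exercise and mTg ATAC-seq intervals were in another build and were not used here.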

Additional observations from a re-analysis of the deposited data

Results flagged for a closer look

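The H3K4me2 standing of the members differed between muscles. The members with H3K4me2 in every muscle stood lower, against regions of all 4 muscles, by -8.93 percentile points in Dia and -5.53 in the limb muscles, and the difference of -3.41 was singled out because both Dia libraries lay below all 6 limb libraries (exact permutation p = 0.0357, the smallest value possible). Ranked over the same regions in every library, which removes the effect of list length, it was -3.17 and the call was lost (exact permutation p = 0.0714). It was -4.43 in distal regions alone (exact permutation p = 0.0357), and -1.003 with limb peaks of adjusted p under 0.001 (exact permutation p = 0.107). Libraries were the units of these tests, so the p-values do not speak to the spread between muscles. Mesothelial marker peaks (8 in Dia, 1 or 2 per limb muscle) and the input at these regions also differed between Dia and the limb muscles, and their part was not tested.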

How the results depend on the processing

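Of 76 alternative values, 45 stayed within the limits set, 26 moved, 5 lost the call and 0 reversed. With limb peaks of adjusted p under 0.001, there were 583 members, 7 nearest to a limb position gene. The promoter share was then 16.6%, the share with limb-only H3K4me2 13.4%, with Dia H3K4me2 46.8%, called in all other Quad sets 50.1% and with an ATAC-seq site 79.9%. The median percentile was 55.2 and the H3K4me2 difference -1.003 (exact permutation p = 0.107). Equal numbers of the highest-scoring peaks per muscle gave 10.3% promoters, 37.0% with Dia H3K4me2, 31.0% called again, 67.3% with ATAC-seq and a median percentile of 41.8. Quad peaks as units gave 31.4%, 25.2% and 50% for Dia H3K4me2, calls again and ATAC-seq. Dia H3K4me2 was 22.7% and limb-only H3K4me2 6.11% where peaks had to cover 50% of a region, and Dia H3K4me2 36.6% with peaks within 1 kb. ATAC-seq within 500 bp of the centre gave 52.6%. Restriction to 1.5 to 3 kb, chosen after seeing the data as was the distal restriction, gave 7.48% promoters, 29.3% with Dia H3K4me2, 23.5% called again and 59.8% with ATAC-seq.

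Leaving out each library in turn gave median percentiles of 35.9 to 38.4 and H3K4me2 differences of -4.02 to -2.79. The call was lost without Dia replicate 1 or 2, where 7 assignments allow no p under 0.143 in the exact permutation test. With the replicate number as a block the difference was -3.41 (exact permutation p = 0.0625, the smallest of 16 assignments). Deviations of same-numbered libraries correlated at -0.0275 to 0.0634 over regions. The labels do not say whether muscles of the same mice were used, and these values cannot show it. Ranked over the same regions in every library, chosen after seeing the data, the difference was -3.17 (exact permutation p = 0.0714). Apart from these losses and that with limb peaks of adjusted p under 0.001, the H3K4me2 alternatives run kept the direction and the call. With 2 libraries per muscle and no counts, differences of single regions between muscles could not be tested.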

Other observations

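By chromosome, the members made up 3.73% of the merged regions of the X chromosome and between 4.001% (chromosome 6) and 5.97% (chromosome 1) of those of the autosomes, and none of 6 on the Y chromosome. The nearest gene was the same in the EDL, Quad and Sol lists for 2498 members (98.4%). The gap from a member to the nearest peak of the missing muscle had a median of 9.39 kb, beside 9.28 kb for regions without Sol, 8.30 kb for regions without Quad and 9.30 kb for regions without EDL.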
